A study of Mus musculus with 31 samples.

Results

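Abundant structural noncoding RNAs were described in Panc02 RNA-seq as 7 genes: Rn7s1 and Rn7s2 (7SL RNA), Rn7sk (7SK RNA), Rmrp and Rpph1 (the RNA subunits of RNase MRP and RNase P), and the long noncoding RNAs Malat1 and Neat1. The rows bearing these 7 symbols were taken from each of 3 count tables, which together list 60172 gene identifiers. The genes had been picked because they take a large part of the counts in these total RNA libraries, so their levels and shares are given as a description and no test was made of them. The choice rested on these levels rather than on differences between groups, although it was made with earlier results of these data known, and the differences were tested. All 7 passed the filter on low counts in each of the 3 tables.

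Panc02 is a mouse pancreatic adenocarcinoma cell line, and 31 libraries in 11 groups were sequenced as strand-specific total RNA after removal of ribosomal RNA. In the medium experiment, WT spheroids grown in Matrigel received control medium (Ctrl), medium conditioned by untreated macrophages (M0-CM) or medium conditioned by IFNγ- and LPS-treated macrophages (M1-CM), with n = 3 each. In the culture experiment, WT and Cxcl5-/- cells were grown in 2D or as 3D spheroids (2D WT, 2D KO, 3D WT and 3D KO, n = 3 each). In the rescue experiment, all in 3D, WT (rescue WT, n = 2) and Cxcl5-/- cells (rescue KO, n = 2) were set beside Cxcl5-/- cells given retroviral mutant Hif1a (Hif1a-OE KO, n = 3) or Myc (Myc-OE KO, n = 3). The knockout had been made with lentiviral CRISPR and puromycin selection, and whether it is 1 clone is not stated. The labels of the rescue samples give the line ascending numbers, and all were read as Panc02, the line the study describes. A spheroid sample pools several spheroids. The study's methods say in general terms that experiments used biological replicates and were repeated independently, but neither they nor the labels say which of these libraries came from separate cultures, so the p-values measure the spread between these samples, which may be technical.

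7SL RNA is the scaffold of the signal recognition particle, which binds ribosomes that make secreted or membrane proteins and docks them at the endoplasmic reticulum. 7SK RNA holds P-TEFb, the kinase that releases paused RNA polymerase II, in an inactive complex with Hexim and Larp7, and RNase P and RNase MRP trim precursor tRNA and precursor rRNA, respectively. These small RNAs are made by RNA polymerase III. Malat1, found in nuclear speckles, and Neat1, the RNA core of paraspeckles, are made by RNA polymerase II and stay in the nucleus.

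Positions and sequences are those of GENCODE M21 on GRCm38, matched by symbol. Rn7s1 and Rn7s2 annotate the same 300-base RNA, with 0 positions that differ, so reads of 1 could equally be given to the other, and their counts are not independent.
Rn7sk lies at chr9:78175303-78175633 on the minus strand. Its sequence is shown because Hexim binds a GATC repeat in the first hairpin of 7SK, and capitals mark every GATC, which start at positions 13, 42 and 64. The first 300 of its 331 bases are shown, and the rest holds no GATC.
Rn7sk: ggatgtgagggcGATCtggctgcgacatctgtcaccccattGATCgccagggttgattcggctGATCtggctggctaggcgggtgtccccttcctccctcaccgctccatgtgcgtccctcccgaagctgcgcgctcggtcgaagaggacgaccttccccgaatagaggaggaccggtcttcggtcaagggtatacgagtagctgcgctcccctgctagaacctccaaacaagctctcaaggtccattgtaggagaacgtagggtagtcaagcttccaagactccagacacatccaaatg
Rmrp has 2 entries at 1 place, a 271-base ribozyme at chr4:43492788-43493058 and a 281-base long noncoding RNA around it, both on the minus strand. The ribozyme entry was used, because it held most of the counts in every library, and the other held between 0.00835% and 2.81% of the counts of the pair. In the sequence of the longer entry, capitals mark the 271 bases of the entry that was used.
Rmrp: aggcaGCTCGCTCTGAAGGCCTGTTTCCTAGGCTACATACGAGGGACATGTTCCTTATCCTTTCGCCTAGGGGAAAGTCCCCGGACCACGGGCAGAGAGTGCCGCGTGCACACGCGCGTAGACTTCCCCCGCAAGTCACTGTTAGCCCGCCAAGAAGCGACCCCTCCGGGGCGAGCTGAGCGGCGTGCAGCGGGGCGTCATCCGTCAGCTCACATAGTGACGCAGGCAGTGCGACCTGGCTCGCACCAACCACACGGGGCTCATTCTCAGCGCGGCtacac
Rpph1 lies at chr14:50807449-50807767 on the minus strand, and 233 of its 319 bases fall in exons of the coding gene Ccnb1ip1 on the same strand, so the first 300 bases of its sequence are shown as a stretch whose reads can fit both annotations. Ccnb1ip1 itself held between 0 and 13 counts per library.
Rpph1: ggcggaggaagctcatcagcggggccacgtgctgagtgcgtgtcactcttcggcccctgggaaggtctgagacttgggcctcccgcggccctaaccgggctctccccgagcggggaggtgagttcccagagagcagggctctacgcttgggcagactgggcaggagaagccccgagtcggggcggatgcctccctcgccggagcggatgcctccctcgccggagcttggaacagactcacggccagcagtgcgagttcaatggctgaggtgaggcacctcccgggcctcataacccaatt
Malat1, at chr19:5795690-5802672, and Neat1, at chr19:5824708-5845478, are both on the minus strand with 22035 bases between them. The longest Malat1 transcript has 6983 bases, and Neat1 is annotated with a long transcript of 20771 bases and a next longest of 3004 bases, which a count per gene does not separate. On the opposite strand, Ccdc107 exons cover 124 bases of Rmrp, and Ccdc107 held 557 to 2157 counts per library.

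Library totals ranged from 41542533 to 78498230 counts. In the culture experiment, 3D KO replicate 1 stood apart from the other 2 libraries of its group in the small RNAs, and the predicted gene Gm10800 took 6.33% to 14.5% of the counts in 3D WT, 0.334% to 0.429% in 3D KO and at most 0.00169% in 2D. Cxcl5, the gene targeted by the knockout, was at 45.6, 47.3 and 49.1 CPM (counts per 1000000 after TMM scaling) in 2D WT and at 37.4, 32.7 and 32.7 CPM in 2D KO. In 3D WT it was at 28.5, 24.5 and 28.0 CPM, and in the libraries labelled 3D KO at 65.5, 40.9 and 45.4 CPM. At the level of RNA this goes against that label, although a Cas9 cut need not lower the transcript. The study reports that the knockout was established by immunoblot for CXCL5 protein, which counts do not measure. Hif1a and Myc were lower in the libraries labelled 3D KO than in 3D WT, by 1.21 and 1.75 on the log2 scale. In rescue KO against rescue WT they were lower by 1.18 and 1.17. Not every gene matched between the experiments, as Rmrp had log2 fold changes of -0.20 and 0.92 in these comparisons. In the rescue experiment Cxcl5 was at 64.2 and 67.7 CPM in WT and at 36.6 and 40.2 CPM in KO. Hif1a was at 258, 296 and 243 CPM in Hif1a-OE KO against 144 and 133 CPM in rescue KO, but it was also at 241, 271 and 262 CPM in Myc-OE KO, and at 303 and 324 CPM in rescue WT. The counts of Hif1a therefore do not set the Hif1a-OE KO libraries apart. Myc was at 548, 525 and 397 CPM in Myc-OE KO against 22.3 and 20.01 CPM. Of 6 epithelial markers, Krt8 (156 to 559 unscaled CPM) and Krt18 were present in every library, whereas Epcam and Cdh1 stayed between 0 and 0.669. The 6 macrophage markers summed to 1.94 to 24.1 unscaled CPM, most of it Lyz2 and Cd68, and Adgre1 and Itgam reached at most 0.788 and were at 0 in most libraries. In these bulk samples, fewer cells with an RNA and less of the RNA per cell cannot be told apart.

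Together the 7 RNAs took between 10.9% and 24.1% of a library, with a median of 15.6% over the 31 libraries. Rn7s1 ranged from 2.73% to 7.28% and Rn7s2 from 2.60% to 7.24%, so the 7SL pair was the largest contributor in every one of the 31 libraries, and the ratio of the pair stayed between 0.834 and 1.15. Rn7sk ranged from 1.76% to 5.58%, Rpph1 from 0.712% to 2.41%, Rmrp from 0.257% to 1.40%, Malat1 from 0.276% to 4.69% and Neat1 from 0.0309% to 0.396%.
Per kilobase of the longest transcript, Rn7s1 had the highest or second highest level in each table and Neat1 the lowest. In the culture experiment the mean over 12 libraries was 157160.0 ± 49430.9 CPM per kilobase for Rn7s1 (SD), 38373 ± 6851 for Rmrp, 1267 ± 925 for Malat1 and 50.05 ± 35.7 for Neat1. The order of the 2 RNase RNAs differed between tables, with Rpph1 at 58551 ± 13762 CPM per kilobase and Rmrp at 21534 ± 3107 in the medium experiment (n = 9), against 32208 ± 14758 for Rpph1 in the culture experiment, where the ranges of the pair overlapped. The tables were counted separately, so levels were not tested across them.

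**Figure D1:**
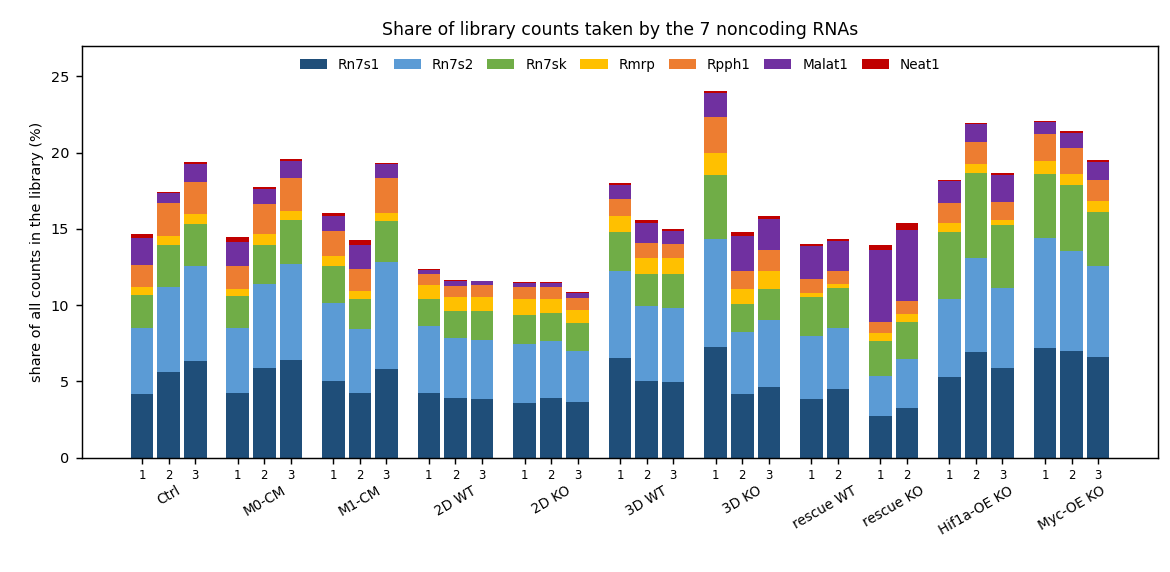
Share of all counts in each of the 31 libraries (y axis, percent) taken by each of the 7 RNAs, stacked, with libraries grouped by condition and numbered by replicate. The stacks are lowest in 2D (10.9% to 12.4%) and highest in 3D KO replicate 1 (24.1%), and the purple Malat1 segment is widest in rescue KO (4.69% and 4.67%).

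By group, the 7 RNAs took 11.9% ± 0.428 of the counts in 2D WT (SD, n = 3) and 11.3% ± 0.365 in 2D KO, against 16.2% ± 1.58 in 3D WT and 18.2% ± 5.06 in the libraries labelled 3D KO. In the last group 1 library stood at 24.1%, beside 14.8% and 15.9%. Of the counts outside Gm10800, the share was 19.2%, 17.0% and 17.5% in 3D WT and 24.2%, 14.9% and 15.9% in 3D KO. In the rescue experiment the share was 14.2% ± 0.227 in WT and 14.7% ± 0.989 in KO (n = 2 each), 19.6% ± 2.03 in Hif1a-OE KO and 21.0% ± 1.32 in Myc-OE KO (n = 3 each).
In the rescue experiment the summed shares of the small and of the long RNAs differed in opposite directions. Of the small RNAs, Rmrp alone went with the long ones between rescue KO (0.516%) and rescue WT (0.264%). Malat1 and Neat1 together took 5.05% ± 0.0182 in rescue KO but 1.11% ± 0.198 in Myc-OE KO, while the 5 small RNAs took 9.60% ± 0.971 and 19.9% ± 1.51. In WT cells of the culture experiment both differed the same way. Malat1 and Neat1 took 0.336% ± 0.0299 of the counts in 2D and 1.17% ± 0.269 in 3D, and the 5 small RNAs took 11.3% to 12.03% in 2D and 13.98% to 16.9% in 3D.

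The medium experiment asked what macrophage-conditioned medium does to the spheroids, and for these RNAs no difference was detected. With edgeR's quasi-likelihood test, 0 of 7 RNAs were called in M1-CM against Ctrl, in M0-CM against Ctrl and in M1-CM against M0-CM, comparisons that share their samples. Over all 19207 genes tested, 0.0156%, 0% and 0.0156% were called. None of the 7 had an unadjusted p under 0.05 in any of the 3, and DESeq2 also called 0 of 7 in each.
The 95% intervals of the log2 fold changes show what could have been missed. For the 5 small RNAs in M1-CM against Ctrl they lay between -0.75 and 0.64, and for Neat1 they ran from -1.19 to 1.67.
The libraries of each medium spread widely. Neat1 was at 2831, 539 and 1400 CPM in Ctrl replicates 1 to 3, at 3042, 978 and 971 CPM in M0-CM and at 1608, 3001 and 1018 CPM in M1-CM. Rn7s1 was at 40009, 55632 and 64751 CPM in Ctrl, at 41633, 61879 and 69561 CPM in M0-CM and at 48759, 38292 and 61206 CPM in M1-CM. In each medium the library with the highest Neat1 had the lowest Rn7s1, and these 3 libraries (Ctrl 1, M0-CM 1 and M1-CM 2) also had the highest Malat1 of their medium, at 16927, 15494 and 13821 CPM. The 11 lists of partner, comparison and marker genes likewise had 0 genes called in all 3 comparisons with edgeR.

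**Figure D2:**
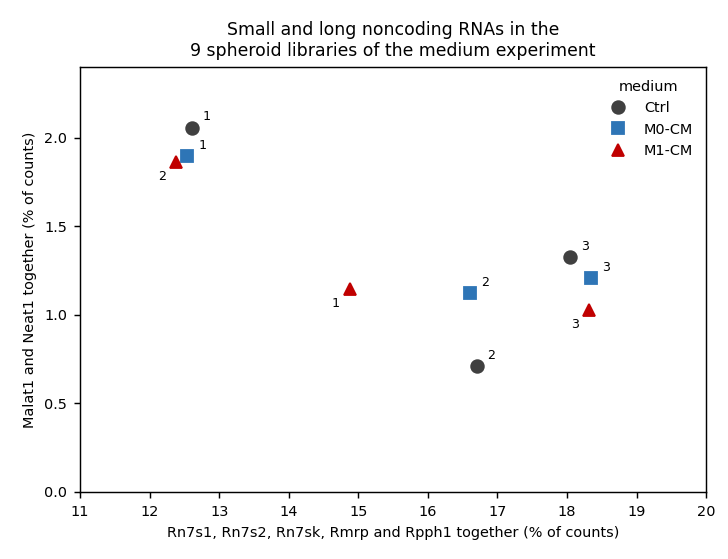
Share of counts of the 5 small RNAs together (x axis, percent) against that of Malat1 and Neat1 together (y axis, percent) in the 9 libraries of the medium experiment, with symbols for the medium and numbers for the replicate. One library of each medium lies at the upper left, with 12.4% to 12.6% small RNAs and 1.86% to 2.06% Malat1 and Neat1, while the media themselves overlap.

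Growth as 3D spheroids was next compared with 2D culture. In WT cells 6 of the 7 RNAs were higher in 3D and 0 were lower. Malat1 rose 4.14-fold and Neat1 3.35-fold, and 4 of the 5 small RNAs rose 1.32- to 1.596-fold. Of all genes tested, 44.3% were called in this comparison, 22.2% as higher and 22% as lower.
For 7SL RNA, Rn7s1 was at 42560.2, 38245 and 38968 CPM in 2D WT and at 75872, 55083 and 60249 CPM in 3D WT. Every 3D library lay above every 2D library, and the log2 fold change was 0.67 (SE 0.21, adjusted p = 0.0178). Rn7s2, the same RNA, gave 0.58 (SE 0.21, adjusted p = 0.0346).
Rn7sk, the 7SK RNA, was at 17744, 17185 and 19115 CPM in 2D WT and at 29494, 22839.8 and 26679 CPM in 3D WT. Its groups did not overlap either, but the test did not call it, with a log2 fold change of 0.55, a 95% interval from -0.03 to 1.13 and an adjusted p of 0.118. Without 3D KO replicate 1, a library of neither group whose spread enters the shared estimate, Rn7sk passed the test at 0.57 (adjusted p = 0.00014).
Rmrp went from 9332, 9356 and 9195 CPM to 12147, 11709 and 12988 CPM, which passed the test at 0.40 on the log2 scale (SE 0.15, adjusted p = 0.0399). Rpph1 went from 7246, 6959 and 7371 CPM to 12654, 10504 and 11012 CPM, which gave 0.66 (SE 0.24, adjusted p = 0.0349).
The small-RNA calls were close to the threshold. Leaving out 1 library of 2D WT at a time, 3D WT replicate 1 or 3D WT replicate 3 left 2 or 3 of the 7 called, and scaling by library totals left 3, because Rn7s2, Rmrp and Rpph1 then missed it. Without 2D KO replicate 1, Rn7s2 and Rpph1 missed it (adjusted p = 0.0503 and 0.0515).
Malat1 stood well clear of this. It was at 2864, 3098 and 2779 CPM in 2D WT and at 11114, 14464 and 10615 CPM in 3D WT, and the log2 fold change came to 2.05 (SE 0.12, adjusted p = 1.87e-08). Neat1 was at 408, 517 and 360 CPM against 841, 1811 and 1657 CPM, which gave 1.75 on the log2 scale (SE 0.26, adjusted p = 0.000100). Both had groups that did not overlap and stayed past the test when any 1 library was left out.

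In Cxcl5-/- cells, 3 of the 7 RNAs were higher in the libraries labelled 3D KO than in 2D KO and 0 were lower, beside 57% of all genes called (28.7% higher and 28.2% lower). Malat1 was at 3039, 3004 and 3470 CPM in 2D KO and at 15255, 18697 and 17735 CPM in 3D KO, a 5.43-fold rise (log2 fold change 2.44, SE 0.12, adjusted p = 2.81e-09). Neat1 was at 309, 359 and 493 CPM against 1621, 2373 and 1726 CPM, a 4.92-fold rise (2.30, SE 0.27, adjusted p = 6.81e-06).
Rpph1 was at 7697, 7482 and 7215 CPM against 23759, 9476 and 11916 CPM, which gave 1.01 on the log2 scale (SE 0.24, adjusted p = 0.00243), or 0.49 without 3D KO replicate 1. The 7SL pair, Rn7sk and Rmrp had log2 fold changes between 0.19 and 0.47 that did not pass the test.
Those values rest on 3D KO replicate 1. Without it Rn7s1, Rn7s2, Rn7sk and Rmrp lay between -0.15 and -0.01, and without 3D KO replicate 2, the library with the lowest small RNAs, all 7 RNAs were called as higher, as they also were when the libraries were scaled by their totals.
Markers of another cell type differed by culture and by genotype. The macrophage list summed to 1.94 to 2.66 unscaled CPM in 2D WT, 6.34 to 8.07 in 3D WT, 6.31 to 7.997 in 2D KO and 17.8 to 24.1 in 3D KO, through Lyz2 and Cd68, while the defining marker Adgre1 was at 0 in all 12 libraries and Ptprc reached at most 0.532. The part of these in the results was not tested.

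**Figure D3:**
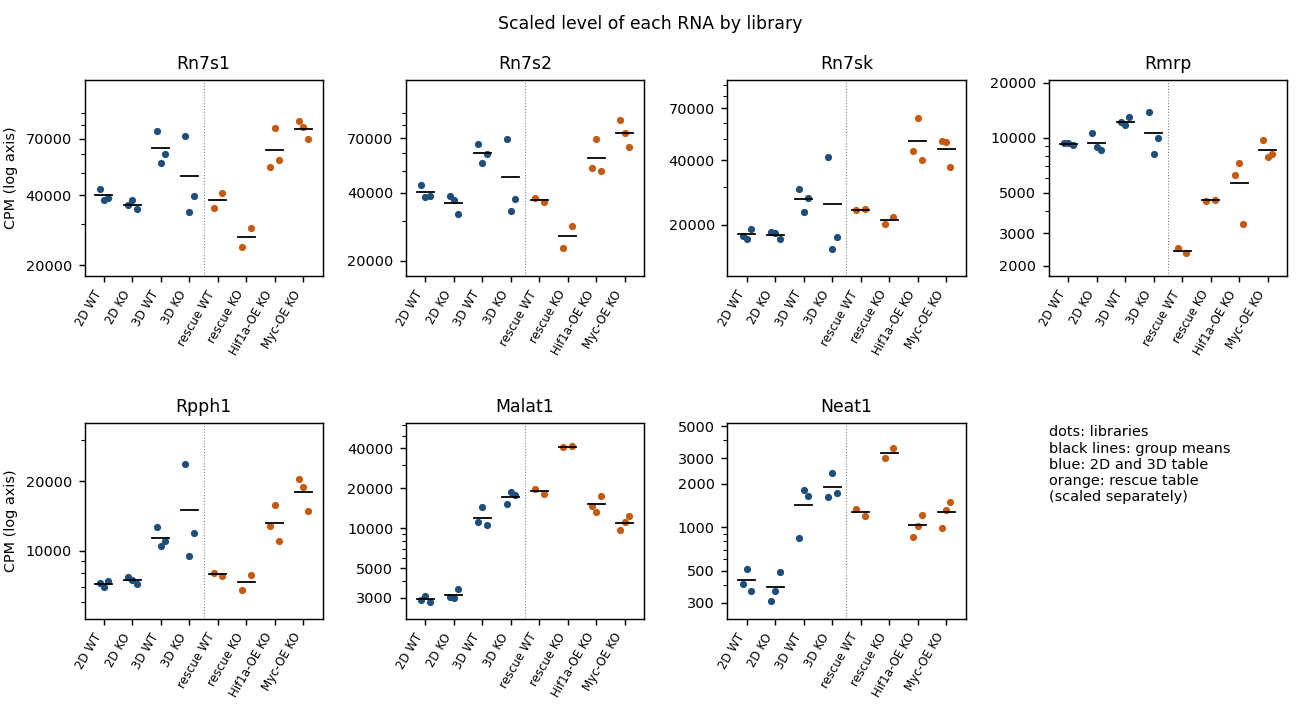
CPM of each RNA (y axes, log scale) in the libraries of the culture experiment (blue) and the rescue experiment (orange), with black lines at the group means. Malat1 separates 2D (2779 to 3470 CPM) from 3D (10615 to 18697 CPM), and 3D KO replicate 1 lies apart from the other 2 libraries of its group in Rn7sk and Rpph1.

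The mRNAs of proteins that bind these RNAs were mostly lower in 3D, where 22% of all genes were called lower in WT and 28.2% in KO. Of 10 genes tested for proteins of RNase P and RNase MRP, which share most of their subunits, 8 fell and 0 rose in 3D WT (median log2 fold change -0.66, against 0.00 over all genes), with Pop1, a large shared subunit, falling by 1.56. In the KO comparison all 10 fell (median -0.97), and Pop1 fell by 2.16.
Of 10 genes of the signal recognition particle and its receptor, 6 fell and 0 rose in 3D WT (median -0.32), and 7 fell and 1 rose in 3D KO (median -0.59). Srpr, a receptor subunit, fell by 0.32 in 3D WT and rose by 0.43 in 3D KO. Of 7 genes of the 7SK particle and P-TEFb, 5 fell and 1 rose in 3D WT, led by Larp7, which binds the 3′ end of 7SK and fell by 1.41. In 3D KO Larp7 fell by 2.00, with 2 genes down and 3 up.
RNA polymerase III and its factors had 16 of 27 genes down and 3 up in 3D WT, and 16 down and 1 up in 3D KO. Polr3gl, an alternative subunit of the polymerase, rose in both (0.97 and 1.20). The lowest adjusted p among those that fell belonged to Polr3f in 3D WT (-1.01) and to Polr3g, the paralogue of Polr3gl, in 3D KO (-1.43). Among 9 paraspeckle proteins, 6 fell and 0 rose in 3D WT, including Nono (-0.61) and Sfpq (-0.74), which coat Neat1. In 3D KO 6 fell and 1 rose. Among 8 nuclear speckle proteins, 4 fell and 0 rose in 3D WT, and 5 fell and 2 rose in 3D KO.
Other noncoding RNAs moved both ways. In 3D WT 3 of 7 tested structural RNAs rose and 0 fell, including mt-Rnr2, the large mitochondrial rRNA (1.69), and of 12 long noncoding RNAs 3 rose and 6 fell, among them Dancr (-1.30). Ribosomal RNA had been removed from these libraries, and what remained took 0.164% to 0.639% of the counts. The part of this removal in the value of mt-Rnr2 was not tested. Of the 13 mitochondrially encoded mRNAs, 2 rose and 7 fell in 3D WT, and 4 rose and 3 fell in 3D KO, or 6 and 3 with library totals. With library totals in place of TMM, the median of all genes moved by -0.21 in 3D WT against 2D WT and no direction of these list medians changed in that comparison.

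Loss of Cxcl5 was compared within each culture. In 2D, 0 of the 7 RNAs were called between KO and WT with edgeR, none had an unadjusted p under 0.05, and DESeq2 called 0 as well, while 7.02% of all genes were called (3.86% higher and 3.17% lower). The log2 fold changes lay between -0.16 and 0.12, with 95% intervals between -0.70 and 0.57. Of the lists, RNase P and MRP, 7SK, signal recognition particle, polymerase III, speckle, paraspeckle, long noncoding and mitochondrial genes had 0 genes called, while Rny3, a Y RNA, fell by 1.23, and Lyz2 rose by 2.61. Of 4 epithelial markers tested, Krt7 rose by 1.348 and 2 fell, Krt18 by 0.39 and Krt19, which was at 0 in every 2D KO library.
In 3D, 1 of the 7 RNAs was called between the libraries labelled 3D KO and 3D WT, beside 45% of all genes (19.7% higher and 25.3% lower). Malat1 was higher, at 15255, 18697 and 17735 CPM against 11114, 14464 and 10615 CPM, a 1.43-fold difference with no overlap (log2 fold change 0.51, SE 0.12, adjusted p = 0.00267). Neat1 was at 1621, 2373 and 1726 CPM against 841, 1811 and 1657 CPM, which overlapped and did not pass (0.41, 95% interval -0.14 to 0.96, adjusted p = 0.214).
The small RNAs were split by 1 library. Rn7s1 was at 71866.5, 33902 and 39876 CPM in 3D KO, against 55083 to 75872 CPM in 3D WT. Rn7sk was at 41611, 15334 and 17588 CPM against 22839.8 to 29494 CPM, so that replicate 1 lay above every 3D WT library and the other 2 below. With all libraries none of the 5 passed the test, with log2 fold changes from -0.39 to 0.40 and adjusted p from 0.144 to 0.822.
Without 3D KO replicate 1, 5 RNAs were called. Rn7s1 was then lower by 0.82 on the log2 scale (adjusted p = 9.14e-05), Rn7s2 by 0.79, Rn7sk by 0.71 and Rmrp by 0.46, and Malat1 was higher by 0.57. Without 3D KO replicate 2, Rpph1 was called as higher (0.69, adjusted p = 0.0153). With the libraries scaled by their totals, Rpph1 (0.75), Malat1 (0.90) and Neat1 (0.81) were called as higher, and Rn7sk and Rmrp changed sign to 0.26 and 0.16. Under that scaling all genes had a median of 0.35, against -0.04 with TMM, and TMM factors were 0.819 to 0.912 in 3D WT and 1.01 to 1.22 in 3D KO.

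**Figure D4:**
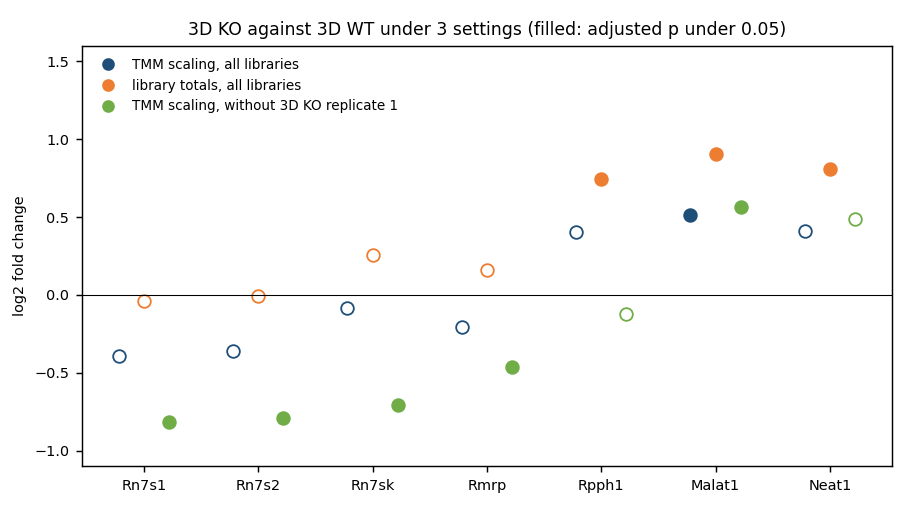
Log2 fold change (y axis) of each RNA in 3D KO against 3D WT with TMM scaling, with library totals, and with TMM scaling without 3D KO replicate 1, where filled points passed an adjusted p of 0.05. Malat1 is filled in all 3 (0.51, 0.90 and 0.57), while the 4 small RNAs at the left are filled only without that library.

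The interaction of genotype and culture, which tests whether the KO difference in 3D differs from that in 2D, called 0 of the 7 RNAs with edgeR, beside 27.2% of all genes (11.1% higher and 16.1% lower). Only Malat1 had an unadjusted p under 0.05 (log2 difference 0.39, SE 0.16, adjusted p = 0.0944), and DESeq2 called 0. Without 3D KO replicate 1, Rn7s1 (-0.70), Rn7s2 (-0.66), Rn7sk (-0.72) and Rmrp (-0.49) were called, and without 3D WT replicate 2 Malat1 was (0.50, adjusted p = 0.0158).
Partners of 7SK were among the genes that differed. In 3D KO against 3D WT, 4 of the 7 genes of the 7SK particle and P-TEFb were higher and 1 was lower. Over all genes 45% were called in that comparison (19.7% higher and 25.3% lower). Hexim1, which inhibits P-TEFb when bound to 7SK, was higher by 1.07 and Hexim2 by 1.18, whereas Larp7 was lower by 0.62, a call that was lost with library totals (-0.24). Of 10 RNase P and MRP proteins 5 were lower and 0 higher (median -0.37), a count that became 2 lower and 2 higher with library totals. Polr3g was lower by 0.88, in a polymerase III list with 5 of 27 genes higher and 8 lower. Of 4 epithelial markers tested, 3 were lower, including the keratin Krt18 by 2.57, and 1, Krt7, was higher by 2.11.

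In the rescue experiment, 3 of the 7 RNAs were higher in rescue KO than in rescue WT and 0 were lower, beside 41.9% of all genes (17.6% higher and 24.3% lower), whose median log2 fold change was -0.30. Malat1 was at 41142 and 41559 CPM in KO and at 19964 and 18155 CPM in WT, a 2.17-fold difference (log2 fold change 1.12, SE 0.17, adjusted p = 0.000362). Neat1 was at 3024 and 3529 CPM against 1335 and 1202 CPM, a 2.58-fold difference (1.37, SE 0.20, adjusted p = 0.000293).
Rmrp was the only small RNA that was called. It was at 4538 and 4580.5 CPM in KO and at 2483 and 2341 CPM in WT (0.92, SE 0.27, adjusted p = 0.0208), and it lost the call when any of these 4 libraries was left out (adjusted p = 0.0521 to 0.072). Rpph1, whose RNA is used by the sister enzyme, was at 6776 and 7821 CPM against 8034 and 7775 CPM and was not called (-0.12, 95% interval -0.54 to 0.31).
Rn7s1 was at 23938 and 28902 CPM in KO and at 35336 and 41046 CPM in WT. The groups did not overlap, but the log2 fold change of -0.53 (SE 0.21) missed the threshold at an adjusted p of 0.0593, and Rn7s2 did at 0.0586. With DESeq2, with its size factors or with library totals both were called as lower (log2 fold changes from -0.63 to -0.49), as they were without Hif1a-OE KO replicate 2 (adjusted p = 0.0105 and 0.0162), and Rn7s2 alone was called without Hif1a-OE KO replicate 3 (0.0488) or Myc-OE KO replicate 3 (0.0493). Rn7sk was at 20083 and 21792 CPM against 23406 and 23557 CPM and was not called (-0.17).
In this experiment too, Hexim1 was higher in KO (1.07), with 5 of 7 genes of its list higher and 1, Larp7, lower (-0.57). Of 10 RNase P and MRP proteins 5 were lower and 0 higher, beside 41.9% of all genes called (17.6% higher and 24.3% lower). Polr3g was lower by 2.15, but its polymerase III list had 7 of 27 genes higher and 6 lower. Of 5 epithelial markers tested, 3 were lower, including Krt18 (-2.02), and of 5 macrophage markers tested Cd68 was higher (0.63) and 2 were lower, Ptprc (-3.91) and Adgre1, which was at 0 in both KO libraries.

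Overexpression of mutant Hif1a or of Myc in Cxcl5-/- cells was compared with rescue KO, so both comparisons share those 2 libraries. All overexpression libraries had larger totals (51419869 to 64872036 counts) than the rescue KO and rescue WT libraries (41542533 to 43890492). Their TMM factors were 0.857 to 1.03, against 1.09 to 1.14. The part of this split in the results was not tested. The 5 small RNAs took 16.7% to 21.2% of the counts with overexpression, above rescue WT (11.7% and 12.2%) as well as rescue KO. With Hif1a, 4 small RNAs were higher and Malat1 and Neat1 lower, 6 of 7 called beside 35.5% of all genes (20.6% higher and 15% lower). With Myc, all 5 small RNAs were higher and Malat1 and Neat1 lower, 7 of 7 called beside 39.6% (21.6% higher and 18% lower).
Rn7s1, at 23938 and 28902 CPM in rescue KO, was at 53189, 78278.5 and 56950 CPM in Hif1a-OE KO and at 83572, 78411 and 70071 CPM in Myc-OE KO. These were rises of 2.38-fold (log2 fold change 1.25, SE 0.20, adjusted p = 0.000458) and 2.93-fold (1.55, SE 0.20, adjusted p = 8.58e-05). Rn7s2 followed with 2.23- and 2.88-fold.
Rn7sk, at 20083 and 21792 CPM in rescue KO, was at 44147, 63200.2 and 40145 CPM with Hif1a and at 49047, 48619.7 and 37333 CPM with Myc. The log2 fold changes were 1.23 (SE 0.21, adjusted p = 0.000726) and 1.10 (SE 0.21, adjusted p = 0.00127). No overexpression library overlapped rescue KO, and all lay above rescue WT (23406 and 23557 CPM) too.
Rpph1 rose 1.81-fold with Hif1a, to 12811, 15783 and 11060.1 CPM, and 2.47-fold with Myc, to 20342, 18907 and 14772 CPM. Rmrp was at 9729, 7849 and 8196 CPM with Myc, a 1.88-fold rise (0.91, SE 0.25, adjusted p = 0.0139) that library totals (adjusted p = 0.054) or leaving out either rescue KO library (0.0746 and 0.0719) took out of the calls. With Hif1a it was at 6234, 7303 and 3373 CPM, which overlapped rescue KO and was not called (0.31, adjusted p = 0.365), although without replicate 3 it was (0.57, adjusted p = 0.00671).
Malat1 fell from 41142 and 41559 CPM to 14645, 13309 and 17508 CPM with Hif1a (-1.45, SE 0.15, adjusted p = 2.36e-05) and to 9654, 11132 and 12425 CPM with Myc (-1.90, SE 0.15, adjusted p = 2.55e-06). Neat1 fell from 3024 and 3529 CPM to 862, 1020 and 1224 CPM (-1.66, SE 0.18, adjusted p = 2.93e-05) and to 986, 1314 and 1509 CPM (-1.37, SE 0.18, adjusted p = 9.26e-05). The directions of all these calls were the same with library totals, with DESeq2 and with any 1 library left out. Malat1 in every overexpression library was also below rescue WT (19964 and 18155 CPM), whereas Neat1 overlapped rescue WT (1335 and 1202 CPM).
Between the 2 overexpressions, 1 of the 7 RNAs was called, beside 19.3% of all genes (9.54% higher and 9.74% lower). Malat1 was lower with Myc than with Hif1a (-0.45, SE 0.14, adjusted p = 0.0402), with no overlap, a call that was lost when any 1 of 6 libraries was left out (Hif1a-OE KO replicates 1 and 3, Myc-OE KO replicates 1 and 2, and both rescue KO libraries). Without Hif1a-OE KO replicate 2, 5 RNAs were called, and without Myc-OE KO replicate 3, 2 were. Rmrp (0.61) and Rpph1 (0.45) had adjusted p of 0.0832 and 0.0729.

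**Figure D5:**
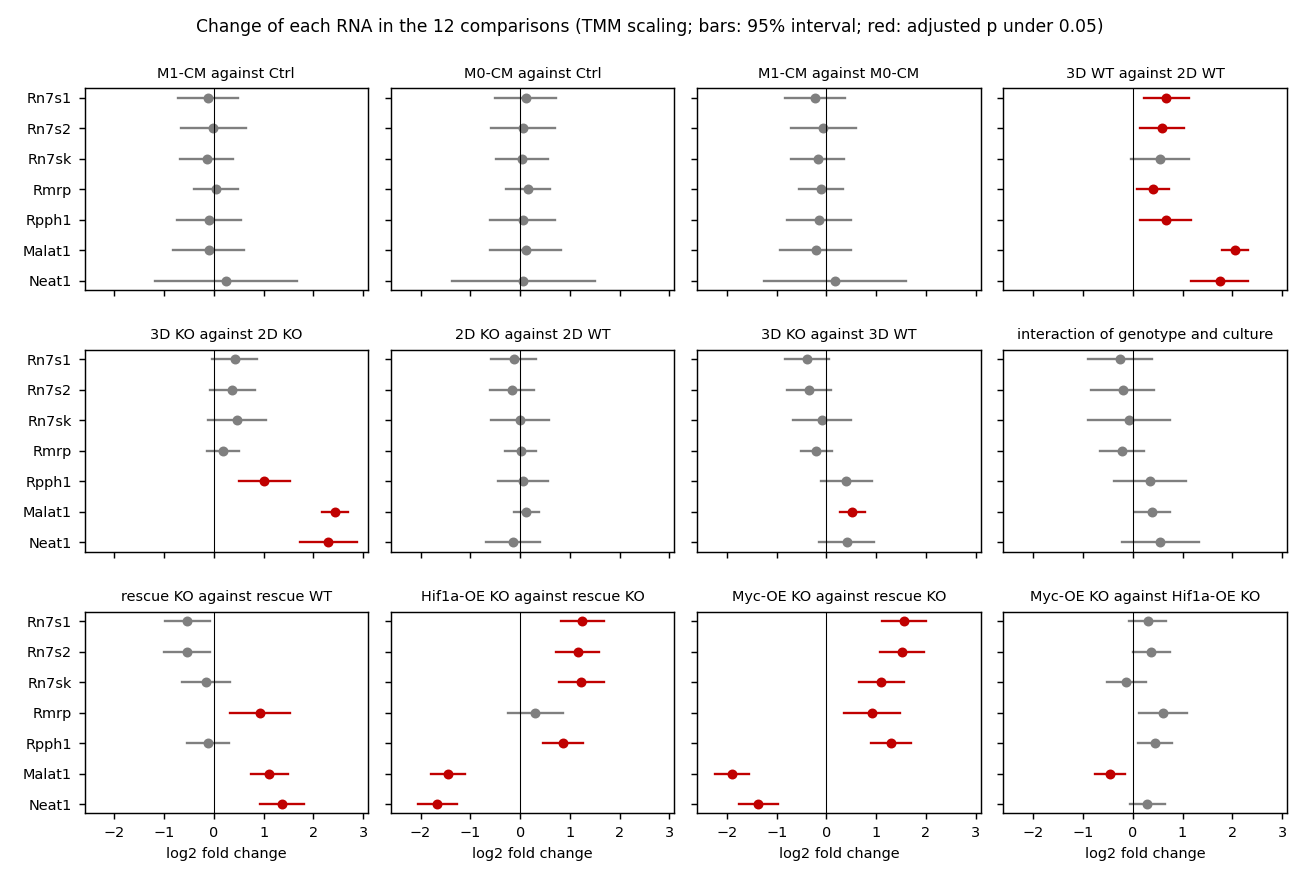
Log2 fold change (x axes) of each RNA with its 95% interval in the 12 comparisons, with TMM scaling, in red where the adjusted p was under 0.05. In the bottom row the long RNAs Malat1 and Neat1 lie to the right in KO against WT (1.12 and 1.37) and to the left with Hif1a (-1.45 and -1.66) and Myc (-1.90 and -1.37), where the small RNAs lie to the right.

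Several partner lists differed with overexpression, where 35.5% of all genes were called with Hif1a and 39.6% with Myc. Of 10 RNase P and MRP proteins, 9 rose and 0 fell with Hif1a (median log2 fold change 1.03, against 0.16 over all genes) and all 10 rose with Myc (1.16, against 0.11), and Pop1 rose by 1.02 and 1.20. Of the signal recognition particle genes, 4 rose and 0 fell with Hif1a and 5 rose and 1 fell with Myc, led by Srp9 (1.15 and 1.25), which binds the Alu end of 7SL. With library totals these became 2 and 2 in each, so no direction is given for that list.
Hexim1 fell by 0.81 and 0.80, and Larp7 rose by 0.58 and 0.47, calls that were lost with library totals (0.35 and 0.13). Polr3g rose by 1.48 and 1.65 and led the polymerase III list, in which 6 genes rose and 4 fell with Hif1a and 8 rose and 5 fell with Myc. That made 10 and 13 of its 27 genes called, not far above the shares of all genes (35.5% and 39.6%). With library totals that list turned to 5 up and 11 down, and 3 up and 9 down. Srsf2, a splicing factor of nuclear speckles, rose by 1.16 and 1.17. Of the 8 nuclear speckle genes, 4 rose and 3 fell with Hif1a, and 5 rose and 3 fell with Myc.
Among other noncoding RNAs, 8 of 13 long ones rose and 3 fell with Hif1a, and 9 rose and 3 fell with Myc, with Snhg5 rising by 1.32 and 1.70, the nuclear RNA Firre falling by 0.88 with Hif1a and Pvt1 by 1.03 with Myc. Terc, the telomerase RNA, has 2 entries between which its counts shifted from library to library, so no value is given for it. Of the mitochondrially encoded mRNAs 3 rose and 7 fell with Hif1a, and 4 rose and 5 fell with Myc. The epithelial markers had 4 of 5 higher with Hif1a, including Krt18 (1.96), and 2 higher with Myc, which library totals turned to 1 higher and 2 lower. The macrophage list summed to 14.4 to 22.7 unscaled CPM over the 10 rescue libraries. Within it Lyz2 rose by 1.29 with Hif1a and 1.44 with Myc, and Cd68 fell by 1.08 with Myc, while Adgre1 stayed at or below 0.0496 unscaled CPM in rescue KO and both overexpressions. The part of these markers in the results was not tested.

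The genes whose levels most resembled each RNA over the 12 libraries of the culture experiment were taken from 10686 genes with a mean of at least 5 CPM, by Pearson correlation of log2 CPM. These points share their libraries and scaling and fall into 2D and 3D sets, so the values are a description. Rn7s1, Rn7s2 and Rn7sk were most like the same 2 predicted genes, Gm54754 and Gm55636 (r from 0.95 to 0.98). Rmrp was most like Scarna10, a small Cajal body RNA, and H3f3a (0.95 each), and Rpph1 most like Gm22442 (0.96) and Pts (0.94). Malat1 was most like Tmem241 and Fam214a, and Neat1 most like Zfc3h1 and Gm49599 (0.99 each).
Members of a pair also differed from one another. The ratio of Malat1 to Neat1 counts ranged from 4.61 to 17.0, and that of Rpph1 to Rmrp from 0.720 to 4.11. Rpph1 counts exceeded Rmrp counts in every library of the medium and rescue experiments, and in 2D WT and 2D KO the ratio was between 0.720 and 0.846. In 3D WT it was 0.848 to 1.04, and in 3D KO 1.16 to 1.72. Rn7sk was 0.207 to 0.294 of the 7SL pair in the culture experiment and 0.279 to 0.430 in the rescue experiment.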

How the data were processed

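Total RNA libraries of Panc02 cells were analysed from 3 tables of whole-number counts per gene, which the authors deposited. Per the labels and the study's methods, strand-specific libraries were aligned to mm10 with HISAT2 and assembled with StringTie. How reads that fit several places were counted is not given in the sources used here, which bears on the identical genes Rn7s1 and Rn7s2 and on the overlapping entries of Rmrp and Rpph1. The culture and rescue tables hold newer gene identifiers than GENCODE M21 (91.39% and 91.23% matched, against 99.38% in the medium table), so members were found by symbol. The 3 tables were normalized and tested separately. Library totals were 41542533 to 78498230 counts, and member counts were large, so the spread between samples, rather than counting error, limits their precision.

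Counts were tested with edgeR 4.0.16 in R 4.3.3: TMM scaling, the filterByExpr filter by group, and a quasi-likelihood fit with all groups of a table, so that they share 1 estimate of the spread. Benjamini-Hochberg adjustment was made over all genes tested, and a gene was called at an adjusted p under 0.05. CPM are TMM-scaled counts per 1000000 without a prior count, and shares are percent of the library total. The 12 comparisons, the 7 members and the gene lists were chosen with earlier results of these data known. All members were named in every comparison, with Cxcl5, Hif1a and Myc, the gene of lowest adjusted p in each direction of a list, protein partners of a member, and for each member the 2 genes most correlated with it among genes of a mean CPM of at least 5. A gene that this rule names and a sequence are not reported here. Alternatives were DESeq2 1.42.0, DESeq2 size factors, library totals with and without the members, other filters, a replicate block, fits of only the groups compared, summed entries and each library left out; those of the lists, of the counts outside Gm10800 and of the lists without 3D KO replicate 1 were chosen after seeing the data. Scripts were tested on simulated data. The labels do not say whether the replicate numbers pair the samples, and the main fit did not pair them. Deviations of same-numbered samples correlated by 0.037, 0.025 and 0.004 on average in the medium, culture and rescue tables. For other numbers the averages were -0.019, -0.012 and -0.002. With 2 or 3 samples per group these values cannot decide whether the samples are paired.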

Additional observations from a re-analysis of the deposited data

Results flagged for a closer look

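Rpph1, the RNA of RNase P, had small differences of opposite sign between Cxcl5-/- and WT cells in the 2D comparison of the culture experiment and in the rescue experiment. The difference of mean log2 CPM was 0.0536 in 2D KO against 2D WT and -0.1187 in rescue KO against rescue WT. It drew attention because all KO libraries lay above the WT mean in 2D and below it in the rescue experiment. The KO and WT libraries overlapped in both. The difference between the experiments was not tested, the cells were grown in 2D in one and in 3D in the other, and neither value passed the test of its own comparison. Between the 3D KO and 3D WT libraries of the culture experiment, the fitted log2 fold change of Rpph1 was 0.40, or -0.12 without 3D KO replicate 1, and did not pass the test either way.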

How the results depend on the processing

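Malat1 and Neat1 kept their calls in 3D against 2D, in rescue KO against WT and with Hif1a or Myc under every alternative run, and no called fold change of a member changed sign. Calls of the small RNAs depended on the scaling and on single libraries in 3D against 2D, in KO against WT in 3D, for the interaction and between the overexpressions, and with Hif1a or Myc against rescue KO those of Rmrp did, and the cause was not tested. For 3D WT against 2D WT, library totals with or without the members called 3 of 7 RNAs in place of 6. For 3D KO against 2D KO the count went from 3 to 7 and 7, and to 5 where at least 10 counts were required in every sample. For 3D KO against 3D WT it went from 1 to 3 and 3, and for the interaction from 0 to 1, 1 and, with that count minimum, 1. For rescue KO against WT it went from 3 to 5 with the DESeq2 test, DESeq2 size factors, library totals, the count minimum and a fit of those groups only. For Myc-OE KO against Hif1a-OE KO it went from 1 to 3 with DESeq2, 3 with the count minimum and 0 with only the groups compared. A replicate block gave 3 calls in 3D KO against 3D WT, 5 in rescue KO against WT and 6 in Myc-OE KO against Hif1a-OE KO. Whether the replicate numbers pair the samples is not known. Of the medium, culture and rescue samples, 6 of 9, 5 of 12 and 5 of 10 correlated best with their own number. With each library left out in turn, the count of called RNAs lay between 2 and 7 for WT in 3D against 2D, 3 to 7 in 3D KO against 2D KO, 1 to 5 in 3D KO against 3D WT, 0 to 4 for the interaction, 2 to 5 in rescue KO against WT, 6 to 7 with Hif1a, 6 to 7 with Myc and 0 to 5 between them.

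The share of the 7 RNAs was 17.9% in 3D WT outside Gm10800 and 14.6% in rescue WT outside mitochondrial and ribosomal RNA genes. Uncalled fold changes changed sign as follows. In M1-CM against Ctrl, Rn7s2 was 0.0051 with library totals and 0.0015 with the count minimum. In M0-CM against Ctrl, Rn7s2, Rn7sk and Rpph1 were -0.0128, -0.0347 and -0.0216 with library totals, and -0.0101, -0.0311 and -0.0195 without the members. In M1-CM against M0-CM, Rn7s2 was 0.0179 and 0.0079. In 2D KO against 2D WT, Rn7sk was 0.0066 with the DESeq2 test and its size factors, 0.0133 and 0.0041 with totals, 0.0018 with the count minimum and 0.0026 with only those groups. In 3D KO against 3D WT, Rn7sk and Rmrp were 0.26 and 0.16 with totals, Rn7s1, Rn7s2, Rn7sk and Rmrp 0.0161, 0.0506, 0.32 and 0.21 without the members, and Rn7sk 0.0071 with no filter and 0.0124 with the count minimum. For the interaction they were 0.0748, 0.13, 0.24 and 0.14 with totals and 0.14, 0.20, 0.32 and 0.19 without the members, and Rn7sk was 0.0099 with no filter and 0.0106 with the count minimum.

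With each library left out, values crossed 0 in M1-CM against Ctrl for Rn7s1 (-0.30 to 0.0466), Rn7s2 (-0.31 to 0.19), Rn7sk (-0.31 to 0.0136), Rmrp (-0.0408 to 0.15), Rpph1 (-0.38 to 0.0774), Malat1 (-0.39 to 0.24) and Neat1 (-0.27 to 0.95). In M0-CM against Ctrl they did for Rn7s1 (-0.0612 to 0.30), Rn7s2 (-0.12 to 0.23), Rn7sk (-0.12 to 0.19), Rpph1 (-0.15 to 0.23), Malat1 (-0.19 to 0.46) and Neat1 (-0.71 to 0.78). In M1-CM against M0-CM they did for Rn7s2 (-0.37 to 0.14), Rpph1 (-0.42 to 0.0342) and Neat1 (-0.34 to 0.94). In 3D KO against 2D KO they did for Rn7s1 (-0.0055 to 0.63), Rn7s2 (-0.0537 to 0.58), Rn7sk (-0.15 to 0.73) and Rmrp (-0.0678 to 0.36). In 2D KO against 2D WT they did for Rn7sk (-0.0211 to 0.0630), Rmrp (-0.0757 to 0.10) and Neat1 (-0.33 to 0.0328). In 3D KO against 3D WT they did for Rn7sk (-0.71 to 0.21) and Rpph1 (-0.12 to 0.69), for the interaction Rn7s2 (-0.66 to 0.0118), Rn7sk (-0.72 to 0.20) and Rpph1 (-0.19 to 0.61), and in Myc-OE KO against Hif1a-OE KO Rn7sk (-0.26 to 0.0967).

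Over all genes, DESeq2 called 97, 17 and 32 genes in the medium comparisons, where edgeR called 3, 0 and 3. Library totals moved the share of calls that were higher from 50.2% to 34.7% for WT in 3D against 2D, from 43.9% to 75.8% in 3D KO against 3D WT, from 40.9% to 77.1% for the interaction, from 57.8% to 43.6% with Hif1a, from 54.6% to 36.3% with Myc and from 49.5% to 36.1% between them.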
